A study of Mus musculus with 9 samples.

Results

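Chemokines are small secreted proteins that guide leukocytes, and this account follows 56 genes for chemokines and their receptors among 19938 genes measured in transplanted mouse mammary tumours. Members were chosen by name alone: every array feature annotated with 1 gene symbol that begins with Ccl, Cxcl, Ccr or Cxcr and a digit, or with Ackr, together with Cx3cl1, Cx3cr1, Xcl1 and Xcr1. Where a gene had several features, as Ccl19 (5) and Ccl25 (2) did, the brightest on average was used. RNA from snap-frozen tumours of 3 cell lines, NDL, Met1 and SSM2, was hybridised to Affymetrix Mouse Gene 1.0 ST arrays, with 3 samples per line and 1 array per sample. Hosts were FVB/NJ females, 6 to 8 weeks old, whose mammary fat pads had not been cleared and received cultured cells on both sides (100000 to 2000000 cells), and tumours were taken at a width of 5 to 10 mm. No sample was treated, and no normal mammary gland was among the samples. As background, the oncogene of NDL is an activated ErbB2 and that of Met1 polyoma middle T antigen, whereas SSM2 expresses hormone receptors. Each group is 1 cell line, the labels do not say that its samples came from separate animals, and each p therefore measures the spread between samples, which may be technical. Values are log2 RMA signals, in which 1 unit is a doubling, and signal is compared between samples for a gene and never between genes.

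Chemokines fall into CC, CXC, CX3C and XC classes by the spacing of their first cysteines. Most act through receptors coupled to inhibitory G proteins on leukocytes, so that a gradient of ligand draws in the cells that carry its receptor, while atypical receptors of the Ackr group bind chemokines without that coupling and remove or transport them. In mammary tumours both cancer cells and host cells make chemokines, and tumour monocytes, neutrophils and T cells are known to follow them. In these whole-tumour samples fewer cells of a type and less RNA per cell cannot be told apart.

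The share of chemokine and receptor genes called between lines was below that of all genes over all 9 arrays. That share changed with the array left out. Without SSM2 replicate 3 it was close to or above that of all genes, and without NDL replicate 3 it was further below. The genes that stood out differed by line. Met1 tumours had the highest signal for Cx3cl1 with its receptor Cx3cr1 and for the CXCR3 ligand Cxcl9, and exceeded NDL in Ccr2 and its ligand Ccl12. SSM2 tumours stood out by Cxcl15, and NDL tumours by low Ackr3. The calls of Cx3cl1 and Cx3cr1 and that of Cxcl15 against Met1 held whichever array was left out. The other calls of these genes ended on leaving out some single array. Between NDL and Met1, 8 of the 56 genes passed an adjusted p of 0.05 in limma, all lower in NDL, a share of 14.3% against 19.1% of all genes (10.2% lower in NDL and 8.88% higher). No member was higher in NDL than in Met1 (3 at an unadjusted p under 0.05). Between NDL and SSM2, 3 members passed (5.36% against 16.9% of all genes), 1 higher (9.35% of all genes) and 2 lower in NDL (7.52%). Between Met1 and SSM2, 6 passed (10.7% against 11.8%), 4 higher (7.1%) and 2 lower in Met1 (4.71%). A moderated F-test over the 3 lines called 9 members (16.1% against 25.1% of all genes). Without SSM2 replicate 3 the members' shares were close to or above those of all genes: 23.2% against 21.3% between NDL and Met1, 16.1% against 16% between NDL and SSM2, 14.3% against 12.4% between Met1 and SSM2, and 30.4% against 26% by the F-test. Without NDL replicate 3, 2 members were higher and 7 lower in NDL than in Met1, where 6631 of 19938 genes were called. Between NDL and SSM2, 1 was higher and 2 lower in NDL in that fit (7018 of all genes). Between Met1 and SSM2, 4 were higher and 2 lower in Met1 (2754), and the F-test called 11 (8311). Over all 9 arrays, 12 genes together passed in at least 1 comparison. The 3 arrays of NDL lay all above those of Met1 for 5 members and all below for 12, where 38.2% of all genes were separate (19.5% above and 18.6% below). NDL lay above SSM2 without overlap for 4 members and below for 6 (31.6% of all genes, 19.7% above and 12% below). Met1 lay above SSM2 without overlap for 7 and below for 5 (31.7%, 18.6% above and 13.1% below). Median differences of the 56 genes were close to 0, at -0.05 between NDL and Met1, -0.11 between NDL and SSM2 and 0.04 between Met1 and SSM2, beside 0.06, 0.09 and 0.04 over all genes. The comparisons share their arrays, so calls of a gene in several of them do not rest on separate evidence.

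**Figure D1:**
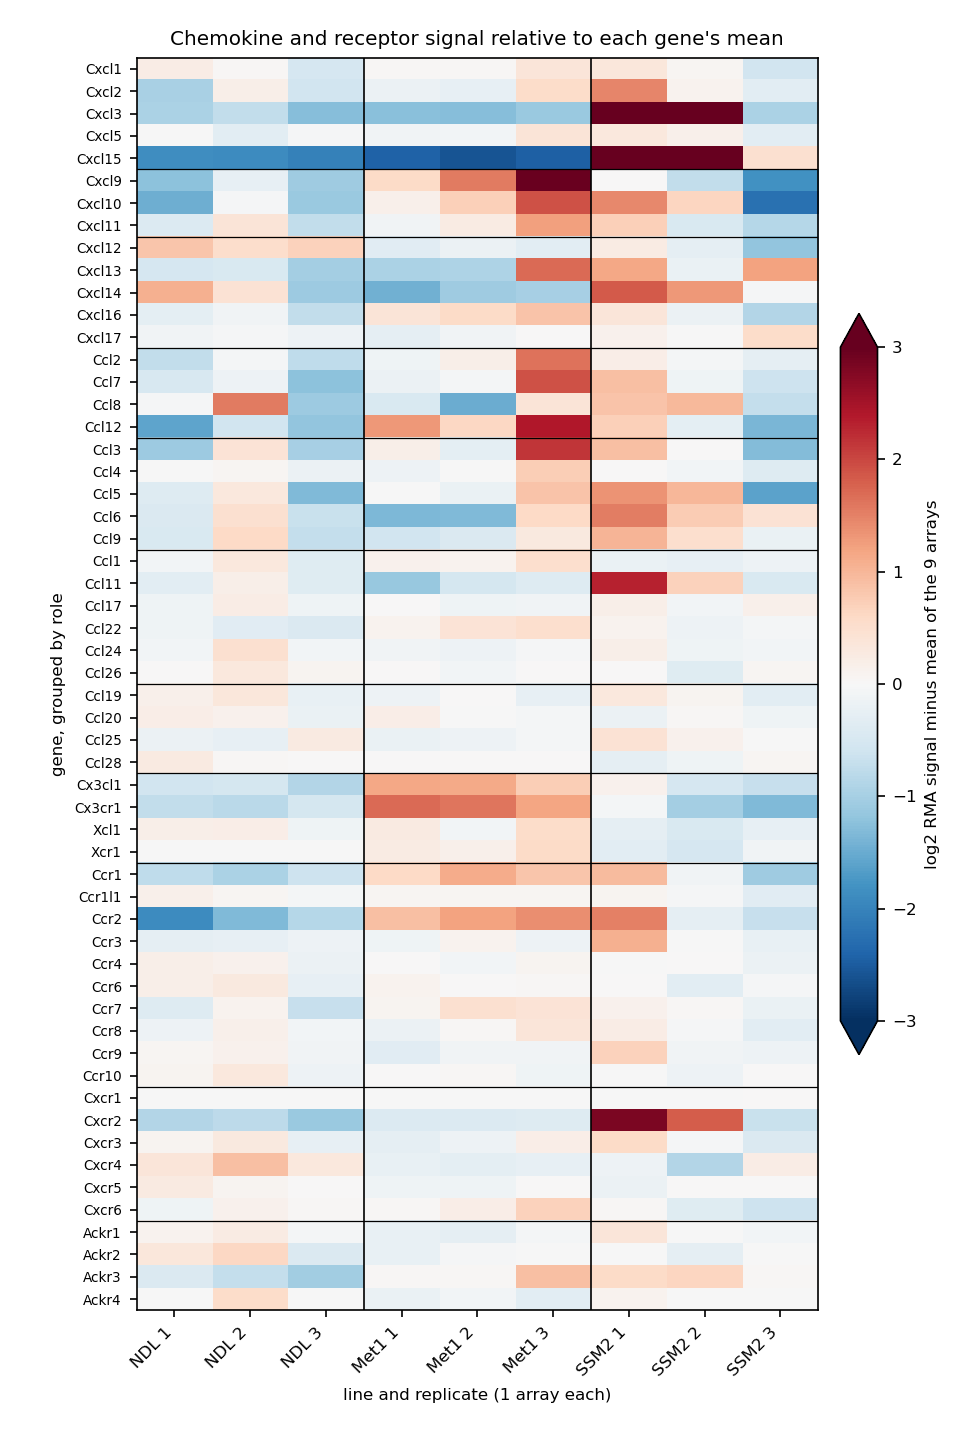
Log2 RMA signal of each of the 56 genes (rows, grouped by role) in each of the 9 arrays (columns) minus that gene's mean over the 9 arrays; red is above and blue below the mean, and the scale ends at 3 log2 units. Cxcl15, Cxcl3 and Cxcr2 stand out in SSM2 replicates 1 and 2 but not in SSM2 replicate 3, and Met1 replicate 3 and SSM2 replicate 1 hold the highest values of 19 and 15 genes.

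Arrays of a line differed in how much chemokine signal they held. Met1 replicate 3 had the highest of the 9 values for 19 of the 56 genes and SSM2 replicate 1 for 15, whereas SSM2 replicate 3 had the lowest value for 17 and NDL replicate 3 for 13. The range within a line exceeded 1 log2 unit for 24 genes in SSM2, 13 in NDL and 11 in Met1. The widest were Cxcl15 in SSM2 (6.12), Cxcl13 in Met1 (2.64) and Ccl8 in NDL (2.63). At the other end, 22 genes spanned less than 1 log2 unit over all 9 arrays, and Cxcr1, a receptor for neutrophil-attracting ligands, spanned 0.02. The 25th percentile of gene means was 4.91, and for 7 members the mean of every line lay under it. The 3 measured Y-linked genes, a reading of background in female hosts, lay between 2.61 and 3.85.

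Cxcl15, a gene of the neutrophil-attracting class of CXC ligands, was higher in SSM2 than in both other lines. The class carries a Glu-Leu-Arg motif ahead of its cysteines, and Cxcl15, also called lungkine, is known from lung epithelium. Cxcl15 (feature 10523145) stood at 12.76, 12.33 and 6.64 in SSM2 replicates 1 to 3, at 4.31, 4.27 and 4.14 in NDL and at 3.74, 3.58 and 3.72 in Met1. Every SSM2 array was above every array of the other lines, but SSM2 replicate 3 lay far below the other two. NDL was lower than SSM2 by 6.33 log2 units (SE 1.36, adjusted p = 0.016) and Met1 lower by 6.89 (SE 1.36, adjusted p = 0.0132), sizes that are uncertain because the NDL and Met1 means (4.24 and 3.68) lay at or near the range of the Y-linked genes. The difference from NDL lost its call on leaving out replicate 1 or 2 of NDL or replicate 2 of SSM2 (adjusted p from 0.0507 to 0.0566) and in a fit of NDL and SSM2 alone (0.0625), while that from Met1 kept it whichever array was left out. Without SSM2 replicate 3 the differences were -8.30 and -8.86.

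Cxcl3 (feature 10523138), whose product draws neutrophils through CXCR2, stood at 9.89, 9.74 and 5.08 in SSM2 replicates 1 to 3, and at 5.08, 5.30 and 4.75 in NDL and 4.77, 4.74 and 4.92 in Met1. Its SSM2 replicate 3 value lay within the NDL values. Neither difference passed over all arrays (NDL minus SSM2 -3.19, SE 1.10, adjusted p = 0.0812; Met1 minus SSM2 -3.43, adjusted p = 0.0867), and both passed without SSM2 replicate 3 (-4.77 and -5.01, adjusted p = 9.84e-06 and 1.38e-05), the second also with array weights (0.00679). Cxcr2 (feature 10347291), the receptor for ligands of this class, stood at 7.80, 6.78 and 4.30 in SSM2, 4.09, 4.18 and 3.86 in NDL and 4.56, 4.55 and 4.58 in Met1. SSM2 replicate 3 was again the lowest SSM2 array, and for Cxcr2 it lay below all Met1 arrays. The receptor gene's differences did not pass over all arrays (NDL minus SSM2 -2.25, SE 0.72, adjusted p = 0.0675; Met1 minus SSM2 -1.73, adjusted p = 0.188) and passed without SSM2 replicate 3 (-3.25, adjusted p = 0.000286, and -2.73, adjusted p = 0.00076), the second also with array weights (0.0217). The sizes for both genes are uncertain, since the NDL and Met1 means of Cxcr2 (4.04 and 4.56) and the Met1 mean of Cxcl3 (4.81) lay under the 25th percentile of gene means, and the Cxcr2 mean in NDL lay near the Y-linked range. Cxcl3 and Cxcr2 are described here because of the values seen in SSM2 replicates 1 and 2, and they are not counted among the genes that passed.

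The other members of the class, Cxcl1, Cxcl2 and Cxcl5, did not pass in any comparison. They lie near Cxcl3 and Cxcl15 on chromosome 5, where in RefSeq order the protein-coding genes run Cxcl5, Ppbp, Pf4, Cxcl3, Cxcl15, Cxcl1 and Cxcl2. Cxcl1, a ligand that many cell types make in inflammation, stood between 6.79 and 7.72 over all 9 arrays, with line means of 7.28 ± 0.37 in NDL, 7.50 ± 0.19 in Met1 and 7.31 ± 0.47 in SSM2 (SD, n = 3). Cxcl2, a related ligand, stood at 6.78, 5.42 and 5.01 in SSM2, where only replicate 1 exceeded the arrays of both other lines (NDL minus SSM2 -0.88, SE 0.48, adjusted p = 0.223). Cxcl5 lay between 4.35 and 5.04 everywhere. Ppbp and Pf4 are platelet chemokines whose symbols fall outside the naming rule. Ppbp stood at 5.86, 5.60 and 4.61 in SSM2, 4.63, 4.78 and 4.6 in NDL and 4.48, 4.44 and 5.12 in Met1, so that SSM2 replicates 1 and 2 lay above all NDL and Met1 arrays and replicate 3 among them, as for Cxcl3 (NDL minus SSM2 -0.69, adjusted p = 0.162; Met1 minus SSM2 -0.68, adjusted p = 0.244). Pf4 stood at 7.09, 6.64 and 6.52 in SSM2 and was lower in NDL than in Met1 (-1.09, adjusted p = 0.035).

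**Figure D2:**
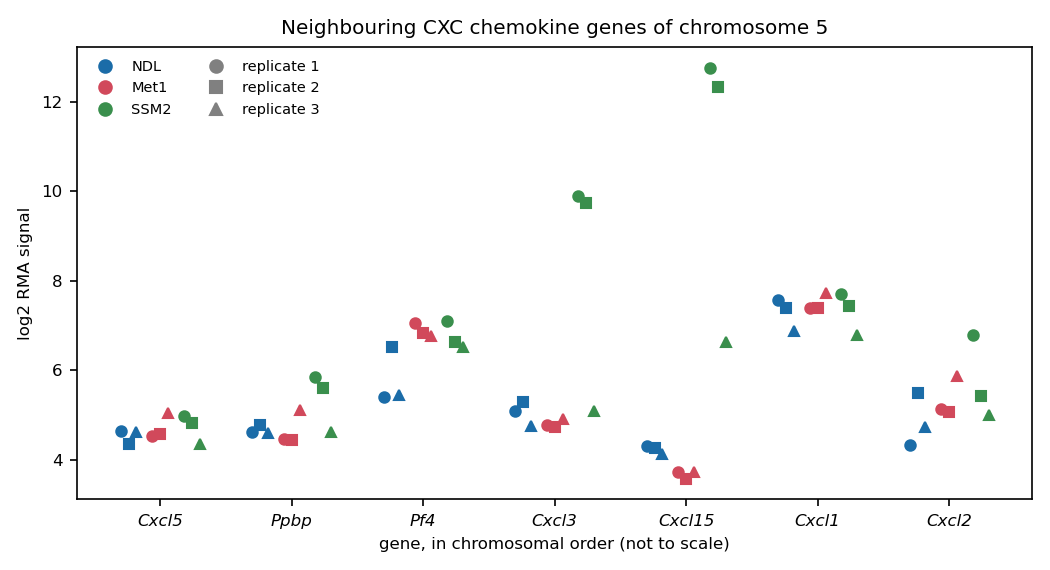
Log2 RMA signal of 7 neighbouring chemokine genes of chromosome 5, in chromosomal order and not to scale, in each of the 9 arrays (colour marks the line and symbol the replicate number). Cxcl3 and Cxcl15 are high in SSM2 replicates 1 and 2 (9.89 and 9.74, 12.76 and 12.33), whereas Cxcl1 lies between 6.79 and 7.72 in every array.

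The start regions of the neighbouring genes Cxcl3, Cxcl15, Cxcl1 and Cxcl2 are shown because 2 of them were high in SSM2 replicates 1 and 2 and Cxcl1 was not. Each is the RefSeq sequence of GRCm38.p6 from 250 bases before to 50 after the gene's start, on the plus strand, at chr5:90785851-90786150, chr5:90794284-90794583, chr5:90890995-90891294 and chr5:90903649-90903948. Capitals mark matches on either strand to TATAAA, to an interferon-stimulated response element (GAAA, any 2 bases and GAAA again) or to the NF-kB motif; where matches on both strands overlap, the capitals run together, and no match to one motif overlapped a match to another.
Cxcl3: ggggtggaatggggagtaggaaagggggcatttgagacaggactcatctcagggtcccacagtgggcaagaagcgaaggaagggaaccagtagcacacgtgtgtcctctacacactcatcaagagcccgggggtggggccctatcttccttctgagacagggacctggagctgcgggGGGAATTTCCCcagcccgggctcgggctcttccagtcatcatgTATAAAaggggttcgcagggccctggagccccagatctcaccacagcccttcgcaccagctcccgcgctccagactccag
Cxcl15: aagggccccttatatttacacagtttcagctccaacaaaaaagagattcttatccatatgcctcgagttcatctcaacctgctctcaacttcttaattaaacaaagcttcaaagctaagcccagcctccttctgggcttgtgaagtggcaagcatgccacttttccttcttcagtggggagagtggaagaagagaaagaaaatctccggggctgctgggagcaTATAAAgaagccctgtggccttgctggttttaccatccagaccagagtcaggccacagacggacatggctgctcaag
Cxcl1: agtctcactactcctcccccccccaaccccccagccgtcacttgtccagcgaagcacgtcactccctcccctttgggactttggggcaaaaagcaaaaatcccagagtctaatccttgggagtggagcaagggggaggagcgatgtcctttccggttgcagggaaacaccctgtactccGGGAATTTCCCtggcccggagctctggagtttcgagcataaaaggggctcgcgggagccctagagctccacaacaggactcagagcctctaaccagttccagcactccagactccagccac
Cxcl2: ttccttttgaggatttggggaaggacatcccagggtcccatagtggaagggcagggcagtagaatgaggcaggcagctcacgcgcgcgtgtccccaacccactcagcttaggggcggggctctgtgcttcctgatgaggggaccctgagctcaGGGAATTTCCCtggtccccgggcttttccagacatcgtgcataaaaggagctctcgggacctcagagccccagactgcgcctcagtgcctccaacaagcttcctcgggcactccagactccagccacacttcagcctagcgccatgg
The NF-kB motif was found near the start of Cxcl3, Cxcl1 and Cxcl2, at -73, -71 and -97 from the start, and not in the Cxcl15 window. TATAAA was found at -30 in Cxcl3 and -27 in Cxcl15. Among all 32851 RefSeq windows of this length, 4.51% held the NF-kB motif, 13.6% TATAAA and 3.44% the response element; among the 42 of 56 members with a window, 9, 14 and 3 did. These are matches of letters, and no binding was measured.

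Signs of other cells moved with Cxcl3, Cxcl15 and Cxcr2 within SSM2. The mean of 9 neutrophil markers was 6.53, 5.74 and 4.90 in SSM2 replicates 1 to 3, against 4.78 to 5.26 in NDL and 5.19 to 5.25 in Met1, and none of the 9 passed in any comparison. S100a8 stood at 7.54, 7.63 and 5.06 and S100a9 at 7.64, 7.59 and 5.34 in SSM2, with 6.15 to 6.44 and 5.76 to 6.10 in Met1. In NDL they ran from 4.82 to 6.28 and from 4.90 to 6.15. Replicate 3 was the lowest SSM2 array for all of the 9 except Elane (5.06, 4.90 and 5.05) and Ngp (4.88, 3.44 and 3.55). The fibroblast marker mean was 10.88, 10.09 and 9.15 in the same order, and the epithelial mean was 11.05, 10.99 and 11.19. Their part in the result was not tested. None of 7 lung epithelial markers passed in any comparison, and their mean ran from 4.72 to 4.97 in SSM2, and in NDL from 4.68 to 5.00.

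Cxcl9, the interferon gamma-induced CXCR3 ligand that draws activated T cells, was highest in Met1. Cxcl9 (feature 10531407) stood at 7.88, 8.86 and 10.26 in Met1, 6.07, 7.05 and 6.23 in NDL and 7.31, 6.57 and 5.49 in SSM2. Every Met1 array lay above every array of the other lines, with Met1 replicate 3 the highest. NDL was 5.84-fold lower than Met1 (-2.55, SE 0.64, adjusted p = 0.0257), and Met1 was 5.83-fold higher than SSM2 (2.54, SE 0.64, adjusted p = 0.0361). NDL and SSM2 did not differ by the test (-0.00, SE 0.64, adjusted p = 0.997). The call against NDL ended without NDL replicate 1, Met1 replicate 2 or Met1 replicate 3 (adjusted p from 0.0694 to 0.0974), and with the replicate number as a block (0.056) or array weights (0.114). The call against SSM2 ended without NDL replicate 1, Met1 replicates 2 or 3, or SSM2 replicates 2 or 3 (adjusted p from 0.0626 to 0.0947), and with the block (0.0779), array weights (0.0565) or a fit of Met1 and SSM2 alone (0.0802).

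The other CXCR3 ligands did not pass over all arrays. Cxcl10 (feature 10531415), induced by type I interferon and interferon gamma, stood at 8.16, 8.73 and 9.92 in Met1, 6.53, 7.98 and 6.89 in NDL and 9.44, 8.64 and 5.77 in SSM2. Met1 and NDL arrays did not overlap, but the difference had an adjusted p = 0.205 (-1.80, SE 0.90); it passed only without SSM2 replicate 3 (0.0469). Cxcl11, annotated as a transcribed pseudogene in the reference strain, had line means of 6.73 ± 0.69 in Met1, 6.02 ± 0.58 in NDL and 6.09 ± 0.82 in SSM2 (SD, n = 3). Cxcr3 itself, the receptor on activated T and NK cells, lay between 5.91 and 6.91 in all arrays, and no difference passed (adjusted p from 0.779 to 0.984).

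The start regions of Cxcl9 and Cxcl10, neighbouring interferon-induced genes of chromosome 5, show how their letters differ. They lie on the minus strand of GRCm38.p6 at chr5:92328030-92328329 and chr5:92348840-92349139 and are written 5′ to 3′ in the direction of the gene, with capitals as above.
Cxcl9: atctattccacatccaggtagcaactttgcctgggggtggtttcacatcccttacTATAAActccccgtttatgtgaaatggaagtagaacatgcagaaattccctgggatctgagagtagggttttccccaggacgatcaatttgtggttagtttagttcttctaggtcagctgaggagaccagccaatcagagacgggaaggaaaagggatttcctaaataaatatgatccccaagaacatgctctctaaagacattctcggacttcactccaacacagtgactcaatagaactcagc
Cxcl10: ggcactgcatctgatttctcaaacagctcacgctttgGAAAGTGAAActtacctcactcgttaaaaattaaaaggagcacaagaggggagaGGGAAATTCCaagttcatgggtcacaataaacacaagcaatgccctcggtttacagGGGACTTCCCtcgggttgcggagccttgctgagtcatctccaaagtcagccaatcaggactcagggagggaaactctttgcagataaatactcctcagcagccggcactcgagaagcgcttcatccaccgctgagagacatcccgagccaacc
Cxcl10 held the interferon-stimulated response element at -213 and the NF-kB motif at -159 and -103. The Cxcl9 window held TATAAA at -195 alone.

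T cell and NK cell markers moved with Cxcl9 in part. Of 8 measured T cell markers, 2 were lower in NDL than in Met1 and higher in Met1 than in SSM2: Cd3g (-1.32 and 1.52) and Cd8a (-0.93 and 1.05). Cd3e, which all T cells carry, had a range of 6.08 to 6.36 in Met1 and of 6.00 to 6.35 in NDL. The list mean was 5.90, 5.94 and 6.21 in Met1, 5.39 to 5.98 in NDL and 5.09 to 5.86 in SSM2. Of 8 NK cell markers, Klrk1 was lower in NDL than in Met1 (-1.0, adjusted p = 0.0457) and Nkg7 higher in Met1 than in SSM2 (1.44, adjusted p = 0.027); Met1 replicate 3, highest for Cxcl9, was also highest for the NK cell list (5.46, against 4.37 to 4.93 in the other arrays). Their part in the Cxcl9 difference was not tested.

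Of the genes of the Cxcl12 system, Ackr3 was lower in NDL than in both other lines, and Cxcl12 was higher in NDL than in SSM2. Cxcl12 is a constitutive chemokine made by stromal cells, Cxcr4 is its signalling receptor, and Ackr3 (once called Cxcr7) is an atypical receptor that takes it up. Ackr3 (feature 10348451) stood at 5.75, 5.48 and 5.14 in NDL, 6.22, 6.23 and 7.09 in Met1 and 6.76, 6.84 and 6.22 in SSM2, so that every NDL array lay below every other array. NDL was 2.08-fold lower than Met1 (-1.06, SE 0.28, adjusted p = 0.0311) and 2.22-fold lower than SSM2 (-1.15, SE 0.28, adjusted p = 0.0257). The first call ended without any of the 3 NDL arrays or Met1 replicate 3 (adjusted p from 0.0503 to 0.0802) and the second without NDL replicate 2 or SSM2 replicates 1 or 2 (from 0.071 to 0.0817); both ended with the replicate number as a block (0.0688 and 0.0587) and with array weights (0.0936 and 0.0623).

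Cxcl12 (feature 10541075) stood at 7.60, 7.31 and 7.47 in NDL, 6.42, 6.59 and 6.46 in Met1 and 7.02, 6.51 and 5.58 in SSM2, with every NDL array above every other array. It was higher in NDL than in SSM2 by 1.08 (2.12-fold, SE 0.31, adjusted p = 0.045), a call lost in 7 of the 9 leave-one-out fits, all but those without SSM2 replicates 1 and 3 (adjusted p from 0.0552 to 0.14). It also ended with the replicate number as a block (0.0534), cyclic loess (0.0536), array weights (0.0899) or NDL and SSM2 alone (0.122). Against Met1 the difference was 0.97 (SE 0.31, adjusted p = 0.0614), and it passed without SSM2 replicate 1 (0.0225) or SSM2 replicate 3 (0.00377), in a fit of NDL and Met1 alone (0.00235), with arrays set to equal medians (0.0364) or with the filter on low signal (0.0478). Cxcr4 (feature 10357472) stood at 9.49, 10.02 and 9.44 in NDL, 8.90, 8.83 and 8.87 in Met1 and 8.98, 8.24 and 9.34 in SSM2. NDL arrays lay above all others, with differences of 0.78 and 0.80 (SE 0.27 each, adjusted p = 0.0804 and 0.0771) that did not pass over all arrays. The difference from Met1 passed without SSM2 replicate 2 (0.0227) or 3 (0.0426) and in a fit of NDL and Met1 alone (0.0216), and that from SSM2 without SSM2 replicate 3 (0.0281). Stromal markers differed between the same lines. Of 7 fibroblast markers, Col1a1 (2.14), Col1a2 (2.08) and Col3a1 (1.51) were higher and Dpt (-3.02) and Pdgfra (-2.53) lower in NDL than in Met1, and Dcn (-3.38) was lower in NDL than in SSM2; the list mean of the NDL arrays ran from 9.07 to 9.34, that of Met1 from 8.36 to 9.27 and that of SSM2 from 9.15 to 10.88. Of 6 endothelial markers, Emcn (-1.34), Vwf (-0.87) and Pecam1 (-0.79) were lower in NDL than in SSM2, as Ackr3 was. Between NDL and Met1, where Ackr3 also differed, none of the 6 passed, and their list means were 6.78 and 6.80. Their part in these results was not tested.

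Cxcl14, a chemokine of epithelia and fibroblasts, was lower in Met1 than in SSM2. Cxcl14 (feature 10409579) stood at 7.77, 8.15 and 8.23 in Met1, 11.06, 10.51 and 9.17 in SSM2 and 10.27, 9.65 and 8.12 in NDL, where replicate 3 lay within the Met1 values. The difference was -2.20 (4.6-fold, SE 0.60, adjusted p = 0.0488). It was lost in 6 of the 9 leave-one-out fits, all but those without NDL replicates 1 and 3 and SSM2 replicate 3 (adjusted p from 0.0683 to 0.157), and with cyclic loess (0.0525). All 7 epithelial markers were lower in Met1 than in SSM2 as well (list mean 7.38 ± 0.81 against 11.07 ± 0.10, SD, n = 3). So were 3 of 7 fibroblast markers, Dcn (-3.89), Col1a2 (-1.66) and Col3a1 (-1.60), while Dpt (1.84) and Pdgfra (1.54) were higher in Met1. Within NDL the epithelial mean ran only from 10.64 to 10.67. Within SSM2 it was highest in replicate 3 (11.19), where Cxcl14 was lowest. The part of these cells was not tested. NDL minus Met1 for Cxcl14 was 1.30 (adjusted p = 0.172) and passed without NDL replicate 3 (1.91, adjusted p = 0.0256).

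Cxcl16, a transmembrane chemokine whose receptor is Cxcr6, stood at 8.96, 9.17 and 9.44 in Met1, 8.30, 8.47 and 7.85 in NDL and 8.95, 8.42 and 7.70 in SSM2. Met1 arrays lay above all others, by 0.98 over NDL (SE 0.31, adjusted p = 0.0573) and 0.83 over SSM2 (adjusted p = 0.133), and neither difference passed over all arrays. The first passed without SSM2 replicate 1 (0.0277) or 3 (0.0165), in a fit of NDL and Met1 alone (0.0175), with equal medians (0.0472) or with the filter (0.0445), and the second without SSM2 replicate 1 (0.0369). Cxcr6 had a difference of 0.63 between Met1 and SSM2 (adjusted p = 0.103), which passed without SSM2 replicate 1 (0.0454). Its size is uncertain, as the SSM2 mean of Cxcr6 (4.59) lay under the 25th percentile of gene means. Cxcl13, the B cell attractant, stood at 7.79 in Met1 replicate 3 and at 5.16 and 5.18 in the other Met1 arrays, with 7.27, 5.90 and 7.31 in SSM2 and 5.08 to 5.65 in NDL. Its receptor gene Cxcr5 lay between 3.83 and 4.27 everywhere. Cxcl17, a mucosal chemokine, spanned 5.63 to 6.44.

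Ccr2, the receptor by which inflammatory monocytes leave the marrow and enter tissue, and Ccl12, one of its mouse ligands, were both lower in NDL than in Met1. Ccr2 (feature 10590631) stood at 5.42, 5.98 and 6.44 in NDL, 8.21, 8.51 and 8.70 in Met1 and 8.81, 7.02 and 6.61 in SSM2. The NDL arrays lay below all others, and SSM2 ranged from just above NDL to above Met1. NDL was 5.76-fold lower than Met1 (-2.53, SE 0.52, adjusted p = 0.0112), a call that ended without NDL replicate 1 (0.0509). Against SSM2 the difference was -1.54 (adjusted p = 0.0794), and -1.97 without SSM2 replicate 3 (adjusted p = 0.0369). Met1 minus SSM2 was 0.99 (adjusted p = 0.314), and 1.66 without SSM2 replicate 1 (adjusted p = 0.0126).

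Ccl12 (feature 10379530) stood at 6.12, 7.15 and 6.52 in NDL, 9.0, 8.32 and 10.11 in Met1 and 8.42, 7.41 and 6.33 in SSM2. All NDL arrays lay below all Met1 arrays, and NDL was 5.84-fold lower (-2.55, SE 0.59, adjusted p = 0.0183). The call ended without NDL replicate 1 or Met1 replicates 1 or 3 (adjusted p from 0.0531 to 0.077) and with array weights (0.052). Met1 minus SSM2 was 1.75 (adjusted p = 0.103), which passed without SSM2 replicate 1 (0.0415). The other ligands of Ccr2 did not pass in any comparison. Ccl2, the main monocyte attractant, stood at 6.53, 6.84 and 8.28 in Met1 and 5.89 to 6.58 in NDL (-1.09, SE 0.42, adjusted p = 0.112). Ccl7 had -1.18 (adjusted p = 0.215), with 9.27 in Met1 replicate 3 against 7.20 and 7.31 in the other Met1 arrays. Ccl8 had its highest value, 9.61, in NDL replicate 2 and means of 8.21 ± 1.32, 7.54 ± 0.94 and 8.44 ± 0.95 (SD, n = 3) in NDL, Met1 and SSM2.

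Macrophage markers moved with Ccr2 and Ccl12. Of 9 measured markers, 6 were lower in NDL than in Met1: Mrc1 (-2.02), Fcgr1 (-1.66), Csf1r (-1.64), Adgre1 (-1.34), C1qa (-1.20) and Cd68 (-1.18). The mean of all 9 ran from 8.01 to 8.51 in NDL and from 9.16 to 9.57 in Met1, and was 8.09, 8.79 and 9.42 in SSM2 replicates 3, 2 and 1, the order that Ccr2 and Ccl12 also took in SSM2. That order was not particular to macrophages. Neutrophil, fibroblast, T cell, NK cell, dendritic cell and endothelial list means took it too, whereas epithelial, monocyte and B cell means did not. Of the 3 measured monocyte markers, none passed between NDL and Met1. The part of these cells in the result was not tested.

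Ligands of the group around Ccl3 to Ccl9, which act on monocytes and T cells, did not pass in any comparison, while Ccr1, a receptor for several of them, did. Ccr1 (feature 10598004) stood at 5.38, 5.20 and 5.52 in NDL, 6.75, 7.24 and 6.98 in Met1 and 7.08, 6.05 and 5.07 in SSM2. NDL was 3.09-fold lower than Met1 (-1.63, SE 0.42, adjusted p = 0.0296). The call ended without NDL replicates 1 or 2 or any of the 3 Met1 arrays (adjusted p from 0.0633 to 0.102). Against SSM2, whose replicate 3 lay below the NDL arrays, NDL differed by -0.70 (adjusted p = 0.265), and by -1.20 without SSM2 replicate 3 (0.0315). Met1 minus SSM2 was 0.92 (adjusted p = 0.236), and 1.43 without SSM2 replicate 1 (0.0182). Ccl6, a mouse-specific ligand of Ccr1, stood at 10.56, 9.79 and 9.46 in SSM2 and 7.68, 7.70 and 9.63 in Met1 (-1.60, adjusted p = 0.113), and that difference passed without Met1 replicate 3 (-2.25, adjusted p = 0.0167) and with array weights (0.0278). Ccl5, made by T cells and macrophages, ranged from 6.73 to 9.68 within SSM2 alone. Ccl3 reached 9.12 in Met1 replicate 3 against 6.68 and 7.15 in the other Met1 arrays, and Ccl4 reached 6.45 there against 5.55 and 5.70.

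Ccl22, a dendritic cell and macrophage product that draws regulatory T cells through Ccr4, showed a small difference. Ccl22 (feature 10574213) stood at 5.04, 4.82 and 4.72 in NDL, 5.26, 5.59 and 5.66 in Met1 and 5.26, 5.01 and 5.12 in SSM2, so that NDL and Met1 did not overlap. NDL was 1.56-fold lower than Met1 (-0.64, SE 0.14, adjusted p = 0.0144). The call ended without Met1 replicate 2 (0.0598) or Met1 replicate 3 (0.0585) and with array weights (0.0632). The NDL mean of 4.86 lay under the 25th percentile of gene means, which makes the size uncertain. Ccl17, the other ligand of Ccr4, spanned 0.35 log2 units over all arrays and Ccr4 itself 0.37. Ccl11 (eotaxin), which draws eosinophils through Ccr3, stood at 9.17, 7.54 and 6.40 in SSM2, 6.48 to 7.03 in NDL and 5.72 to 6.46 in Met1. Its differences from SSM2 did not pass (-1.02 for NDL and -1.53 for Met1, adjusted p = 0.247 and 0.153) and passed without SSM2 replicate 3 (-1.68 and -2.19, adjusted p = 0.0458 and 0.0196), the second also with array weights (0.029). Ccr3 stood at 5.77 in SSM2 replicate 1, where Ccl11 was highest, and between 4.44 and 4.80 in all other arrays.

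Of 9 ligands of lymphoid and mucosal homing, 4 were measured by features of their own; the copies of Ccl21, a main lymphoid homing ligand, and of Ccl27 share features and are not used here. Ccl19, Ccl20, Ccl25 and Ccl28 had no difference that passed, and their list mean lay between 5.31 and 5.53 in all 9 arrays. Ccl25, a thymic and intestinal chemokine, stood at 6.76 in SSM2 replicate 1 and at 6.08 to 6.58 in the other arrays. Among the receptors of these ligands, Ccr7, which directs dendritic and T cells to lymph nodes, stood at 6.12, 6.53 and 6.46 in Met1 and 5.66, 6.15 and 5.35 in NDL (-0.65, SE 0.21, adjusted p = 0.0656), and passed without NDL replicate 2 (0.0166) or with cyclic loess (0.0285). Ccr6, Ccr8, Ccr9, Ccr10, Ccr1l1, Ackr1 and Ackr4 did not pass in any comparison, nor did Ackr2, a scavenger of inflammatory CC chemokines, over all arrays; without NDL replicate 3 Ackr2 was higher in NDL than in Met1 (0.57, adjusted p = 0.0193) and SSM2 (0.58, adjusted p = 0.017).

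Cx3cl1 and Cx3cr1, a ligand and its receptor, were both highest in Met1. Cx3cl1 (fractalkine) is a chemokine tethered to the surface of epithelial and endothelial cells, and Cx3cr1 marks monocytes, tissue macrophages and cytotoxic lymphocytes. Cx3cl1 (feature 10574220) stood at 9.85, 9.81 and 9.42 in Met1, 8.11, 8.15 and 7.81 in NDL and 8.81, 8.19 and 8.00 in SSM2. Every Met1 array was above every other array. NDL was 3.19-fold lower than Met1 (-1.67, SE 0.22, adjusted p = 0.00131), and Met1 was 2.57-fold higher than SSM2 (1.36, SE 0.22, adjusted p = 0.00518). Cx3cr1 (feature 10597743) stood at 10.14, 10.04 and 9.62 in Met1, 7.70, 7.63 and 7.92 in NDL and 8.38, 7.41 and 7.12 in SSM2, again with no overlap. NDL was 4.53-fold lower than Met1 (-2.18, SE 0.30, adjusted p = 0.00161), and Met1 was 4.9-fold higher than SSM2 (2.29, SE 0.30, adjusted p = 0.00197). Neither gene differed by the test between NDL and SSM2 (Cx3cl1 -0.31, adjusted p = 0.338; Cx3cr1 0.11, adjusted p = 0.808). All 4 calls held whichever array was left out. Only that of Cx3cr1 between NDL and Met1 ended without both NDL replicates 1 and 2, which left NDL with 1 sample (difference -2.01).

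Marker genes beside this pair moved in different directions. Of 9 macrophage markers, Met1 exceeded SSM2 in 3 (Csf1r 1.56, C1qa 1.37, Cd68 1.29) and was lower in 1, Cd163 (-2.94), beside the 6 of 9 lower in NDL given above. Endothelial markers, 6 in number, did not pass between NDL and Met1, and 1, Vwf, was lower in Met1 than in SSM2 (-1.31). All 7 epithelial markers were lower in Met1 than in either other line, opposite to Cx3cl1. Within Met1 the macrophage list mean was highest in replicate 3 (9.57, against 9.26 and 9.16), where Cx3cl1 and Cx3cr1 were lowest. The part of these cells was not tested.

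Xcr1, the receptor that marks cross-presenting dendritic cells, was higher in Met1 than in SSM2. Xcr1 (feature 10597996) stood at 5.56, 5.48 and 5.89 in Met1, 5.00, 4.82 and 5.21 in SSM2 and 5.29 to 5.30 in NDL, which lay between them without overlap. Met1 exceeded SSM2 by 0.64 (1.56-fold, SE 0.14, adjusted p = 0.0208), a call that ended without Met1 replicates 1 or 3 or SSM2 replicates 1 or 2 (adjusted p from 0.0523 to 0.0702) and in a fit of Met1 and SSM2 alone (0.0518). Xcl1, its ligand from NK and T cells, stood at 5.19, 4.85 and 5.47 in Met1 and 4.66, 4.46 and 4.67 in SSM2 (0.57, SE 0.17, adjusted p = 0.0665), which passed without Met1 replicate 2 (0.0348). The dendritic cell list, 7 genes, had no member that passed between Met1 and SSM2, and its mean was 5.82 to 5.89 in Met1 and 5.49 to 6.01 in SSM2.

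**Figure D3:**
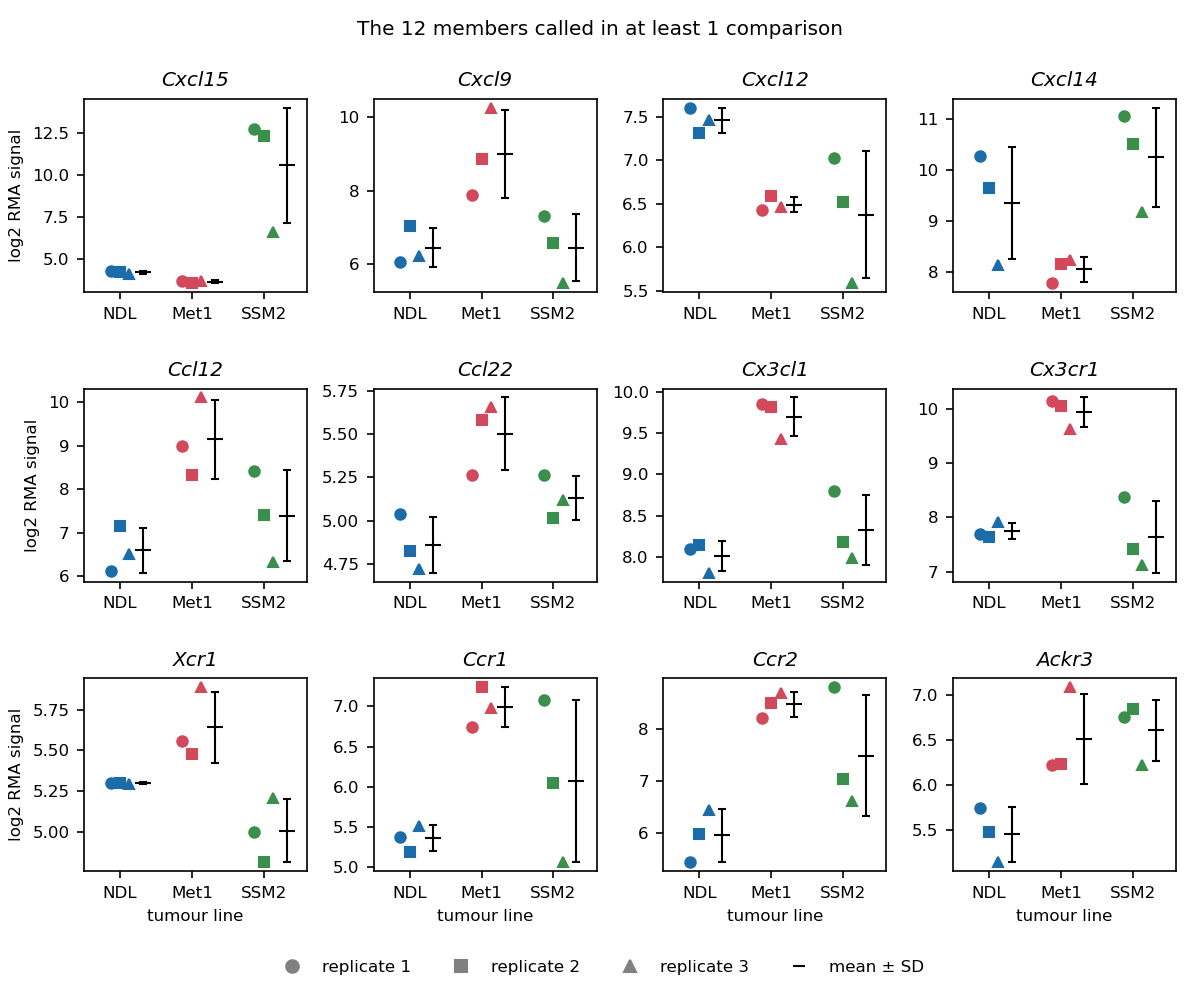
Log2 RMA signal of the 12 genes called in at least 1 comparison, by line, with 1 point per array (symbol marks the replicate number) and the mean ± SD of 3 arrays beside them; each panel has its own axis, which does not start at 0. Cx3cl1 and Cx3cr1 are separated in Met1 (9.42 or more and 9.62 or more), and Cxcl15 in SSM2 with replicate 3 at 6.64.

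**Figure D4:**
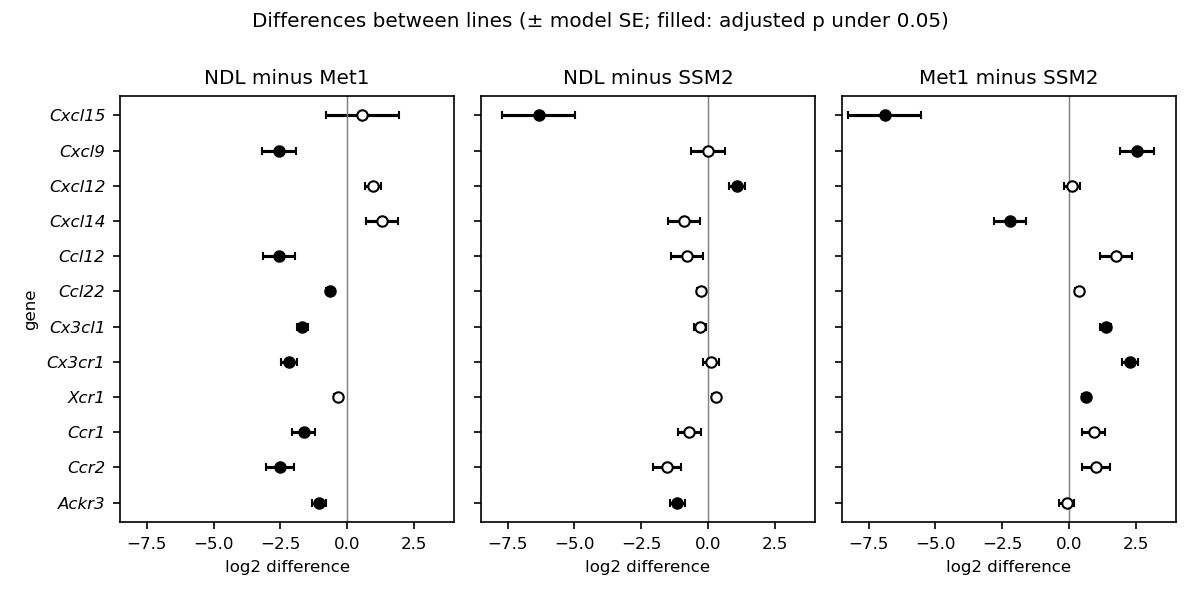
Log2 differences between lines for the same 12 genes with the standard error of the limma model; filled points passed an adjusted p of 0.05. The 8 filled points of NDL minus Met1 are all below 0, and Cxcl15 has the largest differences (-6.33 and -6.89) and the widest error (SE 1.36).

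Genes that act around the chemokines were read from 3 lists. Of 23 measured genes for signalling below the receptors, 9 were lower and 2 higher in NDL than in Met1 (median -0.62, against 0.06 over all genes). The lower ones included the leukocyte migration factor Dock2 (-1.34, adjusted p = 0.0471), the exchange factor Vav1 (-1.22), the leukocyte PI3-kinase subunit Pik3cg (-0.91) and the receptor kinase Grk5 (-0.90); Plcb3 (0.60) and Arrb1 (0.59), an arrestin, were higher. Against SSM2, NDL had 4 higher, led by the Dock2 partner Elmo1 (2.16), and 4 lower, led by Grk3 (-1.56) (median -0.17). Met1 had 5 higher than SSM2, led by Elmo1 (1.32), Arrb2 (1.17) and Gnai2 (0.73), and 1 lower, Plcb3 (-1.48) (median 0.39). Among 25 measured inducers of chemokine genes few passed: the interferon gamma receptor Ifngr1 (-1.39) and Il17ra (-0.86) were lower and Tnfrsf1a (0.63) higher in NDL than in Met1, and the cytokine kinase Jak2 was lower in NDL (-3.66, adjusted p = 0.00656) and Met1 (-3.02, adjusted p = 0.0185) than in SSM2, with Tnfrsf1a (0.92) higher in NDL. Among 13 related genes outside the naming rule, Cmtm3 (-1.50), Pf4, Cmtm7 (-0.76) and Cklf (-0.59) were lower in NDL than in Met1. Cklf (-0.77) and Cmtm6 (-0.70) were lower in NDL than in SSM2. Met1 exceeded SSM2 in Cd74 (1.44), the MIF receptor and invariant chain, and Cmtm3 (1.26), and was lower in Cmtm6 (-0.99).

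**Figure D5:**
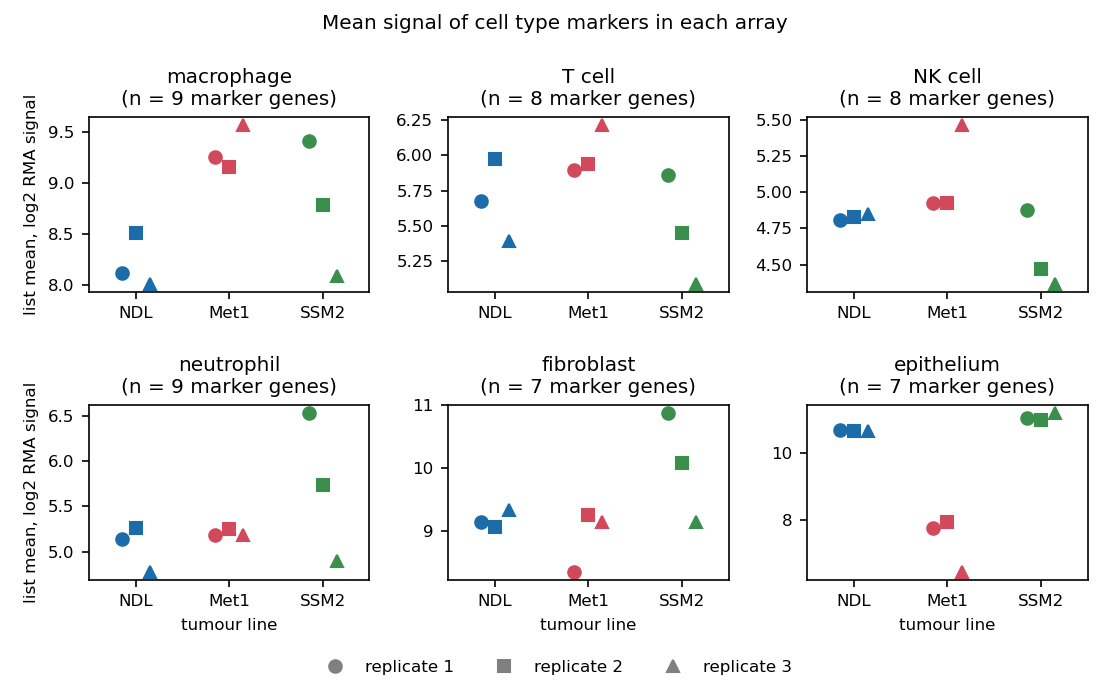
Mean log2 RMA signal of 6 lists of cell type markers in each array, by line (symbol marks the replicate number); axes do not start at 0. The macrophage mean is 9.16 to 9.57 in Met1 and 8.01 to 8.51 in NDL, and within SSM2 the neutrophil mean runs from 4.90 in replicate 3 to 6.53 in replicate 1.

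Facts of the whole series bear on these values. NDL replicates 1 and 2 had the lowest upper quartiles over all genes (7.85 and 7.84, against 7.98 to 8.09 in the rest). Without those 2 arrays NDL rested on 1 sample assumed to vary like the other lines. Without SSM2 replicate 3, 7 members were lower and 2 higher in NDL than in SSM2 (together 16.1%, against 16% of all genes), 5 were lower and 3 higher in Met1 than in SSM2 (14.3% against 12.4%), and 17 passed the F-test (30.4% against 26%). The tumours' labelled epithelial origin was visible in NDL (epithelial mean 10.65 ± 0.02) and SSM2 (11.07 ± 0.10), and lower in Met1 (7.38 ± 0.81, SD, n = 3). B cell markers, 4 in number, had list means between 4.23 and 4.53 in all arrays, and none passed in any comparison.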

How the data were processed

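Snap-frozen tumours were profiled on Affymetrix Mouse Gene 1.0 ST arrays from 100 ng RNA, per the labels' protocols. The authors deposited log2 values, and the submitters' processing notes name RMA and oligo 1.40.2; the genome build is not given in the sources used here. Of 35556 features, 21789 had 1 gene symbol, 1621 several and 12146 none, and 19938 genes entered the test. Features with several symbols were not used, among them 7 for the Ccl21 and Ccl27 copies. Arrays hold no read depth, and their number limits the precision.

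Lines were compared with limma 3.58.1 (R 4.3.3) over all 9 arrays, with p-values adjusted by Benjamini-Hochberg over all genes; the procedure was tested on simulated data. Differences are log2 values, and SEs are those of the model. Tables were joined with data.table (version 1.17.8), Python 3.11.15 and pandas 2.3.3, and plots drawn with matplotlib 3.10.9. Members and lists were chosen with earlier results of these data known. Named with values were members that passed, Cxcl15, Cxcl9, Cx3cr1 and Ccl12, and in each role list the gene with the highest mean; for other lists, up to 4 genes per comparison with the largest differences, or all where 5 or fewer passed. Other genes given with values, Cxcl3 and Cxcr2 among them, were chosen after their values were seen. Replicate numbers are shared by the lines, but correlations of same-numbered samples ran from -0.347 to 0.288, so the numbers were not taken to pair samples. Alternatives were a filter on mean signal (25th percentile), cyclic loess, equal medians, robust fitting with an intensity trend, averaging of a gene's features, array weights (whose iteration stopped before convergence), the replicate number as a block, fits of each pair of lines and omission of each array in turn; the fit without NDL replicates 1 and 2 was chosen after seeing the data.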

Additional observations from a re-analysis of the deposited data

How the results depend on the processing

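No difference of any of the 56 genes that had passed reversed under any alternative run. The 17 differences that passed gave 153 values under alternatives other than a single left-out array, of which 123 still passed and 30 did not, and 153 values with 1 array left out, of which 107 still passed and 46 did not. Cx3cl1 and Cx3cr1 in both their comparisons and Cxcl15 between Met1 and SSM2 passed whichever array was left out. With 1 array left out, members higher in NDL than in Met1 numbered 0 to 3 and lower 3 to 10, higher in NDL than in SSM2 0 to 2 and lower 0 to 7, higher in Met1 than in SSM2 2 to 8 and lower 1 to 5, and the F-test called 5 to 17. Calls over all 19938 genes, in either direction, changed as well. They ran from 2371 to 6631 between NDL and Met1 (3814 with all arrays) and from 1873 to 7018 between NDL and SSM2 (3364). Between Met1 and SSM2 they ran from 1360 to 2754 (2356), and by the F-test from 3354 to 8311 (5007). With the replicate number as a block, 0 members were higher and 1 lower in NDL than in SSM2, 6 were lower in NDL than in Met1, and the F-test called 5. Over all genes that fit called 2779, 3343 and 4326 in the same order. With array weights, 4 were lower in NDL than in Met1, 0 higher and 1 lower in NDL than in SSM2, and 6 lower in Met1 than in SSM2. The weighted fit called 4166, 2902 and 4007 of all genes in these 3 comparisons. Cyclic loess gave 0 higher in NDL than in SSM2 and 1 lower in Met1 than in SSM2 (3335 and 2376 of all genes in either direction). The filter on low signal and equal medians each gave 1 member higher in NDL than in Met1 (3832 of 14953 genes and 3748 of 19938 in either direction). Fits of 2 lines alone gave 3 members higher in NDL than in Met1, 0 higher and 1 lower in NDL than in SSM2, and 2 higher in Met1 than in SSM2. Of all genes they called 4046, 1755 and 2314 in either direction. The fit without NDL replicates 1 and 2 left NDL with 1 sample, so only differences are given. NDL minus Met1 was then -2.03 for Ccr2, -2.62 for Ccl12 and -2.01 for Cx3cr1. Most differences of NDL that had passed over all arrays no longer did. The cause of these changes was not tested. Low signal limits the size of differences in Cxcl15, Cxcl3, Cxcr2, Ccl22, Cxcr6 and Xcl1.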

Other observations

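Growth factor genes beside the CXC ligands on chromosome 5 also differed by line. Btc, which encodes the ErbB ligand betacellulin, stood at 9.18, 9.26 and 8.32 in SSM2, 5.72, 5.77 and 6.33 in NDL and 6.06, 5.78 and 6.33 in Met1 (limma, NDL minus SSM2 -2.98, adjusted p = 0.000281; Met1 minus SSM2 -2.86, adjusted p = 0.000483). Epgn, the ligand epigen, was lower in NDL than in either other line (NDL minus SSM2 -2.01, adjusted p = 0.0115; NDL minus Met1 -1.46, adjusted p = 0.037). Ereg, the ligand epiregulin, stood at 10.45 in SSM2 replicate 3, the array in which Cxcl3 and Cxcl15 were lowest among SSM2 arrays, and at 5.02 and 4.74 in SSM2 replicates 1 and 2, with 4.37 to 5.00 in NDL and Met1. Rassf6, at the other end of the ligand genes, stood at 8.14, 8.64 and 8.04 in SSM2 and 5.64 to 6.56 in the other lines (NDL minus SSM2 -2.11, adjusted p = 0.00178; Met1 minus SSM2 -2.28, adjusted p = 0.00152). These neighbours were chosen after their values were seen.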
